A study of Mus musculus with 4 samples.

Results

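Liver transcripts were followed in RNA of alveolar macrophages (AMs), the resident phagocytes of the lung airspace. The group comprised 41 genes whose protein is made mainly by hepatocytes: 7 carrier proteins of plasma, 6 apolipoproteins, 8 coagulation and adhesion proteins, 9 protease inhibitors, fetuins and inter-alpha-trypsin inhibitor heavy chains, the hormone precursor gene Agt, 9 metabolic enzymes and the transcription factor gene Hnf4a. They were chosen by name, as the rows of the gene count table that carry these symbols, and make up 41 of its 54532 genes. The question was how much liver RNA the macrophage libraries held.

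The Control group consisted of 2 bulk RNA-seq libraries of AMs from female wild-type (WT) mice that received no tumor cells. The Tumor group consisted of 2 such libraries from female WT mice that had carried a primary 4T1 tumor for 2 weeks. The 4T1 line is a mouse mammary carcinoma that seeds the lung when grown in the mammary fat pad. The methods describe the mice as of the BALB/c strain. The study describes AMs isolated from such mice for both staining and sequencing, and names the stained ones as CD45+ CD11b- CD11c+ SiglecF+ cells. How many mice each library came from is not given in the sources used here. The p-values below therefore measure the spread between these libraries, which may be technical. No liver was sequenced, so the proportions of liver transcripts could not be set beside those of the organ.

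Hepatocytes secrete most proteins of blood plasma, and they also hold the urea cycle, gluconeogenesis, amino acid breakdown and much of drug metabolism. Transcription of these genes in the liver depends on HNF1, HNF4 and C/EBP proteins, which bind close to the start of many of them. Macrophages are not known as a main source of albumin or fibrinogen, while some genes of the group, such as the transferrin gene Trf, are also used by cells outside the liver.

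The promoters of a few members are shown because these genes are active together in liver, each from 250 bases before to 50 bases after the start of transcription. RefSeq sequence (build GRCm38.p6) was held for 33 of the 41 members, in 38 promoters. Ttr, Serpina3k, Apoc3, Apof, Trf, Kng1, Plg and Cps1 had no entry. Capitals mark the HNF1 site core GTTAAT, the HNF4 part site CAAAGTC and the C/EBP part site TTGNGCA, each on either strand, and the TATA box TATAAA on the strand of the gene. In the Alb promoter the HNF4 and C/EBP letters lie side by side. The promoters of Alb and Vtn are shown because each held 3 of the 4 motifs, those of Fga and Fgb because both genes encode chains of 1 protein and each held 2 motifs, and those of Serpina1a and Serpina1b because these genes are near copies.
Alb (chr5:90460620-90460919, plus strand): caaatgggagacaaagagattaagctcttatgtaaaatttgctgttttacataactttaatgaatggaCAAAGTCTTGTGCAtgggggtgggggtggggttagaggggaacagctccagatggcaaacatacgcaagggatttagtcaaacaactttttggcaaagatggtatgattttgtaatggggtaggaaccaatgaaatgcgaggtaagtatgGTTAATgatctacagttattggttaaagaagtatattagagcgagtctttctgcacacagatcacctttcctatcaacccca
Vtn (chr11:78498870-78499169, plus strand): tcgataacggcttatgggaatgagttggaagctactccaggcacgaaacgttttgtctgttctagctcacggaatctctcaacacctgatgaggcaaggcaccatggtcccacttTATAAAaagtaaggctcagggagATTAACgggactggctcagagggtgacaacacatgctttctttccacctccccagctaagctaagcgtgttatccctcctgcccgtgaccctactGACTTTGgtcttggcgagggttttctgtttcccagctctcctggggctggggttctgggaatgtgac
Fga (chr3:83025903-83026202, plus strand): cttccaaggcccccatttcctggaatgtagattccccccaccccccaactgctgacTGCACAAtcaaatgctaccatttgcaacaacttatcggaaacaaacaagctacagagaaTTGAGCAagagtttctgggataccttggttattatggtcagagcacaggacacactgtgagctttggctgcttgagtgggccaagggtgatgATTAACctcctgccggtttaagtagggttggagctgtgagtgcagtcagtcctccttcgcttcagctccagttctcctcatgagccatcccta
Fgb (chr3:83049814-83050113, minus strand): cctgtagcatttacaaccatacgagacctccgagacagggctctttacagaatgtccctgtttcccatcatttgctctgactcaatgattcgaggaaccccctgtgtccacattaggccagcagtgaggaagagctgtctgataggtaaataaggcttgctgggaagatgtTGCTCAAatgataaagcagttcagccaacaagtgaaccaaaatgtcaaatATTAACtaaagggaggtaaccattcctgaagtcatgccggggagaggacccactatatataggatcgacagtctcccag
Serpina1a (chr12:103863570-103863869, minus strand): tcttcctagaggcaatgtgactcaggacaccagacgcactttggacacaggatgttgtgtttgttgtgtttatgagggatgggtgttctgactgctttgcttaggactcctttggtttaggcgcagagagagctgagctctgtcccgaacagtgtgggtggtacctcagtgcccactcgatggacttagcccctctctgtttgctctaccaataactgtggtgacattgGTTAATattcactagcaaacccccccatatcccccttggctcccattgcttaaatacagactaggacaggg
Serpina1b (chr12:103738140-103738439, minus strand): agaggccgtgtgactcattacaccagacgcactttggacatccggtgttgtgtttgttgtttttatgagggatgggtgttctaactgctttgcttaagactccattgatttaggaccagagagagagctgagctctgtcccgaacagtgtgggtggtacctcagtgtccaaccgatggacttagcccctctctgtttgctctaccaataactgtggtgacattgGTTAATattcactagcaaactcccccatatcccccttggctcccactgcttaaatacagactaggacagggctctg

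The HNF1 site core was found in 12 of the 38 member promoters (31.6%), against 7.10% of all 32851 promoters in the table. It lay 32 bases before the start in Alb, 43 in Fga, 29 in Fgb, 21 in Serpina1a and 26 in Serpina1b. These starts are those of the promoter entries, which for Alb, Fga and Serpina1a differ from the gene starts in the annotation of the count table. With the starts of Serpina1a and Serpina1b shifted by 5 bases against each other, 206 of 295 bases (69.8%) were identical without gaps, and the motif fell at the same place. The TATA box was held by 23.7% of member promoters against 8.32% of all. The HNF4 part site was held by 10.5% against 4.44% of all, and the C/EBP part site by 15.8% against 11.8%. On the strand of the gene alone, the HNF1 share was 10.5% against 3.65% and the HNF4 share 2.63% against 2.30%. The study concerns the aryl hydrocarbon receptor, whose core motif GCGTG, looked for on either strand after the data had been seen, was held by 18.4% of member promoters and by 32.4% of all. In these windows 24 of the 33 members held at least 1 of the first 4 motifs. These are matches of letters in a window and not measured binding.

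Total counts were 16167147 to 19205737 per library, and 3 counts, taken here as the floor of detection, corresponded to 0.153 to 0.190 CPM (counts scaled to a common library size, after TMM scaling). In the edgeR quasi-likelihood test, 7671 of 14256 genes tested (53.8%) differed between the groups at an adjusted p under 0.05, with 29.0% higher and 24.8% lower in Tumor. Of the genes called, 53.9% were higher, and this share became 89.5% when libraries were scaled on a list of AM identity genes, which took the median over all genes from 0.02 to 0.40 on the log2 scale. Chil3, Mrc1, Ear2 and Plet1, the most abundant of 14 AM identity genes, had between 15727 and 95522 counts in every library. Summed over that list, CPM was 16427 and 16572 in Control against 12565 and 12707 in Tumor, with 12 genes lower and 1 higher. With scaling on the list itself, 8 of its genes were lower and 5 higher. Although all mice are labelled female, the Tumor libraries held a few counts of Y-linked genes. Ddx3y had 10 and 9 counts and Eif2s3y 11 and 2 in Tumor replicates 1 and 2, both had 0 in the Control libraries, and Uty and Kdm5d had at most 1. Xist, the RNA of the inactive X chromosome, was present in all 4 libraries but lower in Tumor, at 922.9 and 878.6 CPM in Control against 623.3 and 624.4 in Tumor (edgeR log2 fold change -0.53 ± 0.02 SE, adjusted p = 3.92e-17, n = 2 per group). With scaling on the AM identity genes the log2 fold change of Xist was -0.15. Whether the Y-linked counts and the level of Xist bear on the results below was not tested.

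All 41 liver genes were above the floor in both Tumor libraries, while in Control 34 did not pass it in either library. Among all 15835 genes above the floor in both Tumor libraries, 8.16% were at the floor in both Control libraries. Of the 34 genes, 25 had no count at all in either Control library. The other 7, Trf, Apoa2, Hpx, F2, Itih4, Serpinc1 and Agt, were above the floor in at least 1 Control library. The test covered 40 genes, since Ugt1a1 did not pass the filter on low counts, and called 39 of them higher and 1, Trf, lower in Tumor. Genes at the floor in Control passed that filter only through the Tumor libraries and so had to differ, and their p-values are not given. Hpx, Apoa2, F2, Itih4, Serpinc1 and Agt, with 0 to 14 counts in a Control library, also needed the Tumor libraries to pass, so their p-values below carry the same limit. With at least 10 counts required in every library, 2 members were tested, of which Hpx was higher and Trf lower, beside 6517 of 12279 genes called. In bulk RNA, fewer cells of a type and less RNA per cell cannot be told apart.

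**Figure D1:**
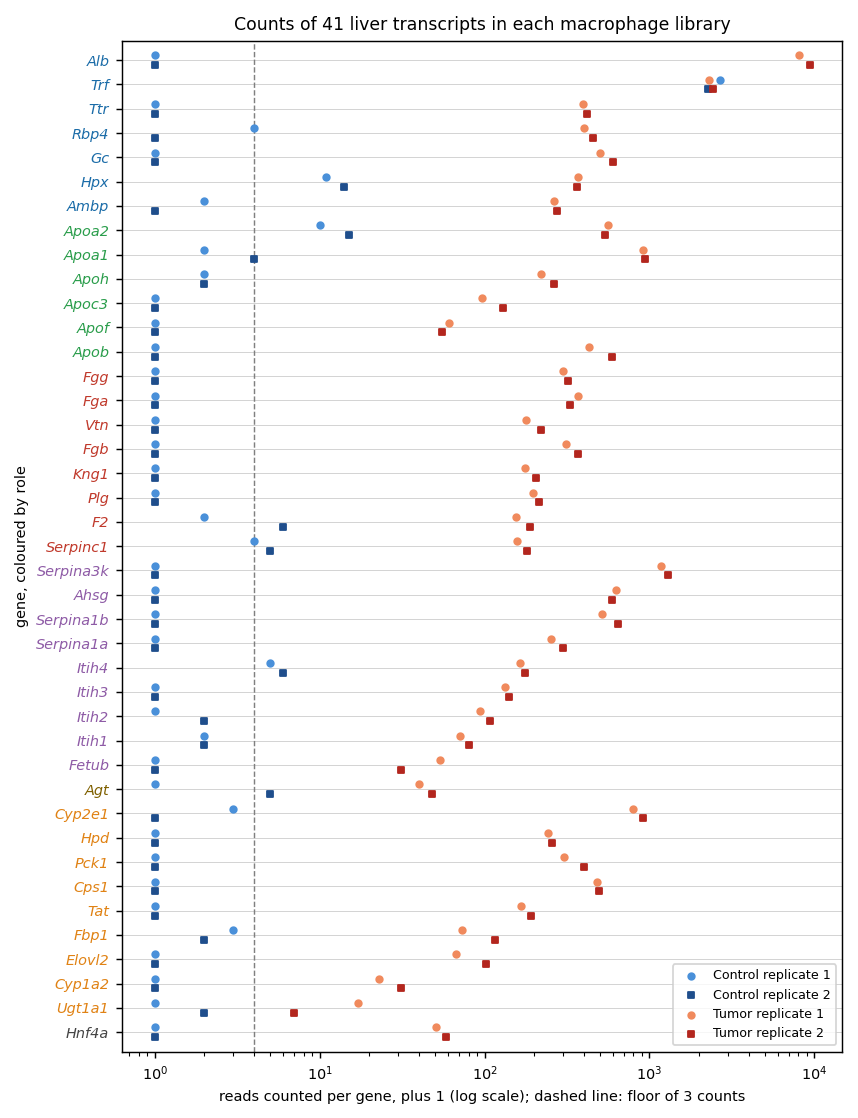
Reads counted per gene plus 1 (log scale) for each of the 41 liver genes, in Control replicates 1 and 2 (blue) and Tumor replicates 1 and 2 (orange and red). Gene names are coloured by role, and the dashed line is the floor of 3 counts. The Tumor libraries lie to the right for every gene except Trf, whose 4 values lie between 2260 and 2664 counts.

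Summed over the 41 genes, CPM was 144.1 and 146.6 in Control against 1252 and 1243 in Tumor. Trf made up nearly all of the Control sum. Without it, 38 and 53 counts remained in Control and 19385 and 21958 in Tumor. This was 0.114% of the counts of Tumor replicate 1 (95% exact binomial interval 0.113% to 0.116%) and 0.114% of Tumor replicate 2 (0.113% to 0.116%), which covers counting error only. On the CPM scale the sum without Trf was 2.69 ± 0.941 (SD, n = 2) in Control and 1119 ± 0.246 (SD, n = 2) in Tumor. The groups did not overlap, and the exact permutation test gave a two-sided p of 0.333, the smallest that 2 against 2 libraries allow.

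For genes at the floor in Control, the change is given as a lower bound, from the lower Tumor CPM over the higher Control floor. It makes no allowance for counting error in the Tumor counts, so "at least" is loose where these are low, as for Ugt1a1. The median bound over the 34 genes was 70.6-fold, with 31 above 10-fold and 11 above 100-fold. Only Fetub and Ugt1a1 had bounds that differed by more than 1.5 times between the Tumor libraries.

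Alb had the highest level of all 41 genes in Tumor and belongs to the carriers. Alb (ENSMUSG00000029368, chromosome 5, 90460897 to 90476602, plus strand), the gene of the main plasma protein, was without a count in Control and had 8036 and 9358 counts in Tumor. At 470.5 ± 9.10 CPM (SD, n = 2) it was at least 2441-fold higher in Tumor, and it alone supplied 41.5% and 42.6% of the liver counts other than Trf in Tumor replicates 1 and 2. Ttr, whose product transthyretin carries thyroid hormone, went from 0 in both Control libraries to 393 and 418 counts. This was 22.0 ± 0.984 CPM (SD, n = 2), at least 112.1-fold higher. Rbp4, Gc and Ambp, which encode the retinol carrier, the vitamin D carrier and the precursor of alpha-1-microglobulin, had at most 3 counts in a Control library and at least 263 in a Tumor library.

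Hpx and Trf were the carriers seen in Control as well. Hpx, the gene of the haem scavenger hemopexin, had 10 and 13 counts in Control and 366 and 364 in Tumor. Its groups lay far apart, with a log2 fold change of 4.88 ± 0.21 (SE; edgeR adjusted p = 2.44e-17, n = 2 per group), and 4.90 in the fit restricted to genes with 10 counts or more throughout. Trf (ENSMUSG00000032554, chromosome 9, 103204001 to 103230444, minus strand) was the exception among all 41 genes. It had 2664 and 2260 counts in Control and 2304 and 2430 in Tumor, or 142.1 and 143.2 against 133.0 and 123.8 CPM. Control was slightly higher, without overlap on the CPM scale. The log2 fold change was -0.15 ± 0.04 (SE; edgeR adjusted p = 0.00266, n = 2 per group), but it was called higher, at 0.23, with scaling on the AM identity genes, and the call was lost at -0.09 with total counts and at -0.10 without Tumor replicate 2. Of the 50-base windows of Trf, 79.8% also occur in Gm20425, a gene model on the same strand that had no count in any library.

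Of the 6 genes of apolipoproteins, the protein part of plasma lipid particles, 5 were at the floor in both Control and above it in both Tumor libraries. Among all genes above the floor in both Tumor libraries this share was 8.16%. Apoa2, a protein of high-density lipoprotein, had 9 and 14 counts in Control against 556 and 538 in Tumor. Its log2 fold change was 5.46 ± 0.20 (SE; edgeR adjusted p = 3.14e-19, n = 2 per group). Apoa1, which forms the frame of the same particle, had 1 and 3 against 908 and 933 counts and was at least 250.2-fold higher. Apoh, encoding beta-2-glycoprotein I, had 1 count in each Control library and 218 and 261 in Tumor, at least 66.2-fold higher. Apoh overlaps Prkca on the other strand, which had 571 to 853 counts in every library, and the strand setting of counting is not given in the sources used here. Apob, the large structural protein of very-low-density lipoprotein, Apoc3, an inhibitor of triglyceride clearance, and Apof had no count in Control. In Tumor, Apob reached 428 and 592 counts, Apoc3 96 and 128, and Apof 60 and 54.

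The 8 coagulation and adhesion genes had at most 5 counts in a Control library and at least 154 in a Tumor library. The fibrinogen genes Fgg, Fga and Fgb, which lie next to each other on chromosome 3 (83007724 to 83049863) and encode the chains of the clot-forming protein, had no count in Control. Fgg had 299 and 319 counts in the Tumor libraries, Fga 368 and 328, and Fgb 310 and 369. Per kilobase of gene length the chains separated without overlap in Tumor, at 8.01 ± 0.341 CPM per kilobase for Fgg, 6.31 ± 1.07 for Fga and 4.82 ± 0.168 for Fgb (SD, n = 2). This order depends on the annotated gene lengths. Before division by length, Fga (21.3 and 16.7 CPM in Tumor replicates 1 and 2) overlapped both Fgb (17.9 and 18.8) and Fgg (17.3 and 16.3). The bounds were 85.5-fold for Fgg, 87.9-fold for Fga and 94.2-fold for Fgb. Vtn, encoding the adhesion protein vitronectin, went from 0 to 177 and 218 counts, at least 53.8-fold higher. Plg, the plasminogen gene, and Kng1, the kininogen gene, had 0 counts in Control and 174 to 213 in a Tumor library.

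F2 and Serpinc1, which encode prothrombin and its main inhibitor antithrombin, had traces in Control. F2 had 1 and 5 counts in Control and 154 and 187 in Tumor, a log2 fold change of 5.67 ± 0.35 (SE; edgeR adjusted p = 6.11e-14, n = 2 per group). It depended on the Control library used, and was 4.82 without Control replicate 1. Serpinc1 had 3 and 4 against 157 and 180 counts, a log2 fold change of 5.44 ± 0.32 (SE; edgeR adjusted p = 1.87e-14, n = 2 per group). In both genes the Tumor libraries lay far above the Control libraries. Serpinc1 overlaps Zbtb37, which had 176 to 288 counts in every library.

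The 9 genes of protease inhibitors, fetuins and inter-alpha-trypsin inhibitor heavy chains had at most 5 counts in a Control library and at least 30 in a Tumor library. Serpina3k, a gene of the antichymotrypsin family, had 0 counts in Control and 1172 and 1300 in Tumor, at least 348.5-fold higher. Ahsg, the gene of fetuin-A, went from 0 to 625 and 595 counts, at least 159.5-fold higher. The alpha-1-antitrypsin gene Serpina1b went from 0 to 515 and 640 counts, at least 156.5-fold higher, and its copy Serpina1a from 0 to 252 and 300. Reads of these copies may be shared: 67.4% of the 50-base windows of Serpina1a and 35.8% of those of Serpina1b occur in another gene of the family, and the corresponding shares were 14.0% for Serpina3k and 18.0% for Kng1. The paralogs Serpina1c, Serpina1d and Serpina1e, looked at after the other values had been seen, had 0 counts in Control and between 133 and 350 in each Tumor library.

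The heavy chain genes Itih1, Itih3 and Itih4 are neighbours on chromosome 14. Itih4 had 4 and 5 counts in Control and 162 and 174 in Tumor, a log2 fold change of 5.09 ± 0.31 (SE; edgeR adjusted p = 3.08e-14, n = 2 per group). Itih1, Itih2 and Itih3 had 0 or 1 count in a Control library and 70 to 140 in a Tumor library. Fetub, the second fetuin gene, was the member with the largest gap between the Tumor libraries among those with a mean of at least 20 counts there. It had 53 and 30 counts against 0 in Control, and its bound was 8.04-fold, or 16.1-fold from Tumor replicate 1 alone. Agt, encoding the precursor of angiotensin, had 0 and 4 counts in Control and 39 and 47 in Tumor, a log2 fold change of 4.24 ± 0.60 (SE; edgeR adjusted p = 8.63e-07, n = 2 per group), which was 3.15 without Control replicate 1.

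The enzymes are proteins that stay inside the hepatocyte. Cyp2e1, a cytochrome P450 that oxidizes ethanol and small solvents, had 2 and 0 counts in Control and 793 and 916 in Tumor, at least 240.9-fold higher. Hpd, an enzyme of tyrosine breakdown, went from 0 to 241 and 254 counts, at least 68.1-fold higher. Pck1, the gene of the cytosolic enzyme that commits carbon to gluconeogenesis, went from 0 to 303 and 398 counts, at least 92.1-fold higher. Each was thus at or near 0 in Control and above 240 counts in Tumor. Hpd overlaps Psmd9, which had 295 to 353 counts in every library.

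The remaining enzymes spanned the urea cycle, sugar, amino acid, lipid, drug and bilirubin metabolism. Cps1, the entry enzyme of the urea cycle, had 480 and 492 counts in Tumor, and Tat, tyrosine aminotransferase, had 166 and 191, both from 0 in Control. Fbp1, a gluconeogenic phosphatase, had 2 and 1 counts in Control and 72 and 114 in Tumor. Elovl2, which elongates polyunsaturated fatty acids, had 66 and 101 counts from 0. Cyp1a2, a cytochrome P450 inducible through the aryl hydrocarbon receptor in liver, was among the lowest, with 0 in Control and 22 and 30 counts in Tumor. Ugt1a1, which conjugates bilirubin, had 0 and 1 against 16 and 6 counts and was at least 1.61-fold higher, or 4.86-fold from Tumor replicate 1 alone. It was not tested, and 58.2% of its 50-base windows are shared with other genes of its cluster, of which Ugt1a7c had 598 to 859 counts in every library.

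Hnf4a (ENSMUSG00000017950, chromosome 2, 163506808 to 163572910, plus strand), a nuclear receptor that drives many of the genes above in liver, had 0 counts in Control and 50 and 57 in Tumor. It was at least 15.2-fold higher. The transcript of the transcription factor was thus present in the Tumor libraries together with those of secreted proteins.

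Levels of different genes were compared per kilobase of annotated gene length. In the Tumor libraries Alb stood first with 200.9 ± 3.89 CPM per kilobase (SD, n = 2), above Apoa2 with 55.4 ± 6.17, Apoa1 with 40.4 ± 2.79 and Trf with 38.7 ± 1.96. The values of Apoa1 and Trf overlapped between libraries. Serpina3k followed with 32.6 ± 0.490, Cyp2e1 with 21.4 ± 0.292, Ttr with 18.0 ± 0.807 and Rbp4 with 17.8 ± 0.0528, and the last of these neighbours did not differ beyond their spread. At the low end stood Cyp1a2 with 0.695 ± 0.0908, Hnf4a with 0.600 ± 0.00258 and Ugt1a1 with 0.276 ± 0.197. Of the first 16 places, Cyp2e1 was the one gene of a protein that is not secreted, and the 3 last places belonged to enzymes and the transcription factor gene.

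**Figure D2:**
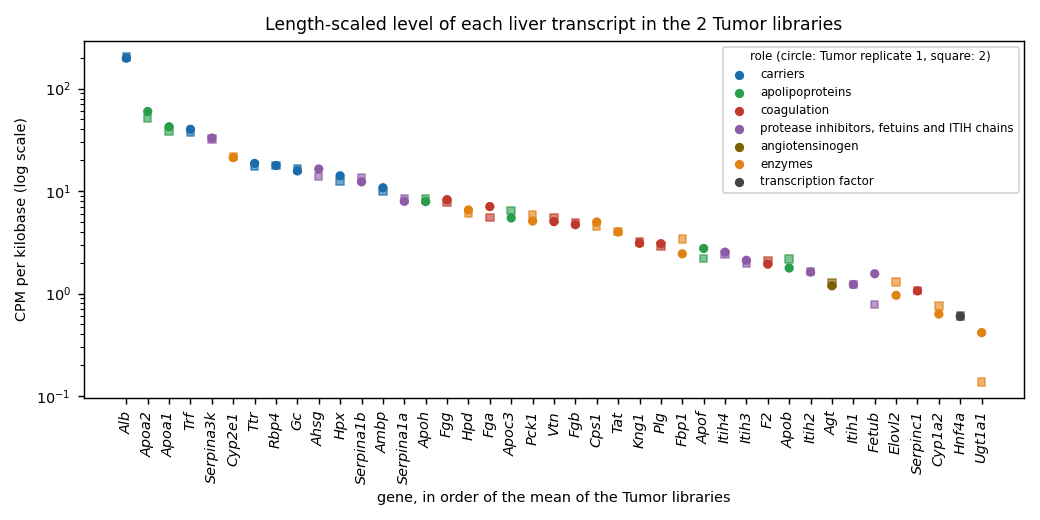
CPM per kilobase of gene length (log scale) of the 41 liver genes in Tumor replicate 1 (circles) and Tumor replicate 2 (squares), in order of their mean and coloured by role. Alb stands first at 200.9, and Ugt1a1 stands last at 0.276 with the widest gap between its points.

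The Tumor libraries were compared with each other. For the 40 genes that averaged 20 counts or more there, the ratio of CPM in replicate 2 to replicate 1 had a median of 1.01 and ran from 0.500 for Fetub to 1.40 for Fbp1. Of these ratios, 35 lay between 0.8 and 1.25. The 95% counting interval of the ratio held 1 for 32 genes and left it out for 8. In 77 other hepatocyte genes, 71.4% of the ratios lay in that range, and so did 85.5% of those of 12754 genes of all kinds, with medians within 0.01 of 1 in both. The share of liver genes in that range, 87.5%, was thus near that of genes of all kinds and above that of other hepatocyte genes, and these differences were not tested.

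**Figure D3:**
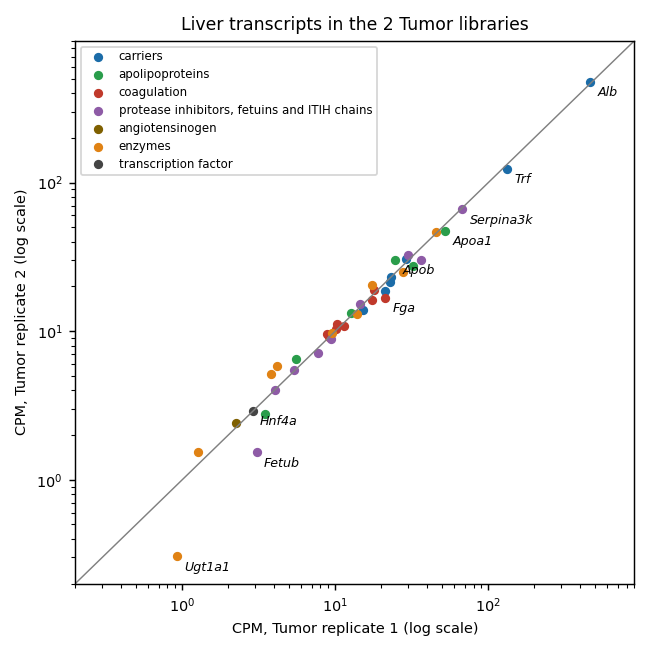
CPM of the 41 liver genes in Tumor replicate 1 (horizontal) and Tumor replicate 2 (vertical), both on log scales and coloured by role, with the line of equal values in grey. The points lie along the line from Alb at 464.1 and 476.9 CPM down to Ugt1a1, and Fetub and Ugt1a1 fall below it.

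Other genes of the hepatocyte were also found in the Tumor libraries. In a list of 101 further secreted and metabolic hepatocyte genes, 100 were in the table, and 60 of these were at the floor in both Control and above it in both Tumor libraries. Of 82 genes tested 71 were higher and 4 lower, a count that includes genes which passed the filter only through Tumor. With at least 10 counts required in every library, 24 were tested and 15 were higher. Mat1a, the liver form of methionine adenosyltransferase, had 0 and 1 counts in Control and 591 and 656 in Tumor. The secreted genes with the highest levels over the 4 libraries, F7, Selenop and F10, were abundant in Control and called lower in Tumor, but Selenop was called higher, at 0.19, with scaling on the AM identity genes. F7, coagulation factor VII, had 9489 and 8095 counts in Control and 6278 and 7146 in Tumor (edgeR log2 fold change -0.49 ± 0.03 SE, adjusted p = 1.56e-15, n = 2 per group). With scaling on the AM identity genes the log2 fold change of F7 shrank to -0.10, and that of F10 went from -0.56 to -0.17.

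Hepatocyte membrane proteins and transcription factors differed in level. Of 14 transporters and receptors, 11 were at the floor in both Control and above it in both Tumor libraries, and the other 3 were above the floor in a Control library. Slc38a4, an amino acid transporter, went from 0 to 118 and 120 counts, and the asialoglycoprotein receptor gene Asgr2 from 1 and 2 to 78 and 104. Of 18 liver transcription factors other than Hnf4a, 6 were tested, with 4 higher and 1 lower. The higher count includes Creb3l3, with 4 and 1 counts in Control and 19 and 27 in Tumor, which needed the Tumor libraries to pass the filter. The most abundant of the 18 factors, Cebpb, Cebpa, Xbp1 and Prox1, were expressed in all 4 libraries, and Cebpa had 6919 and 5926 counts in Control and 8101 and 9320 in Tumor.

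Liver genes that differ between the sexes in mice were looked at as separate lists. Of 11 genes higher in male liver, 6 were at the floor in both Control and above it in both Tumor libraries. Mup20, a urinary pheromone protein, had 0 counts in Control and 212 and 389 in Tumor. Cyp2d9, a steroid-hydroxylating P450, had 0 against 130 and 190 counts, and Slco1a1, an organic anion transporter, had 0 against 31 and 24. Of 11 genes higher in female liver, none was above the floor in both Tumor libraries, 9 had no count in any library and none was tested. At this depth a count of 0 allows up to 0.153 to 0.190 CPM. The highest of the female list was Cux2, with 3 and 6 counts in Control against 6 and 0 in Tumor. Of 7 further genes described as higher in female liver and looked at after these values had been seen, 6 were at the floor in all 4 libraries, and Cyp4a14 had 0 counts in Control and 607 and 689 in Tumor. Among major urinary proteins, 5 of 10 were above the floor in both Tumor libraries and all 10 had 0 counts in Control, with Mup3 at 559 and 669 counts. The difference between the male and female lists was not tested.

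**Figure D4:**
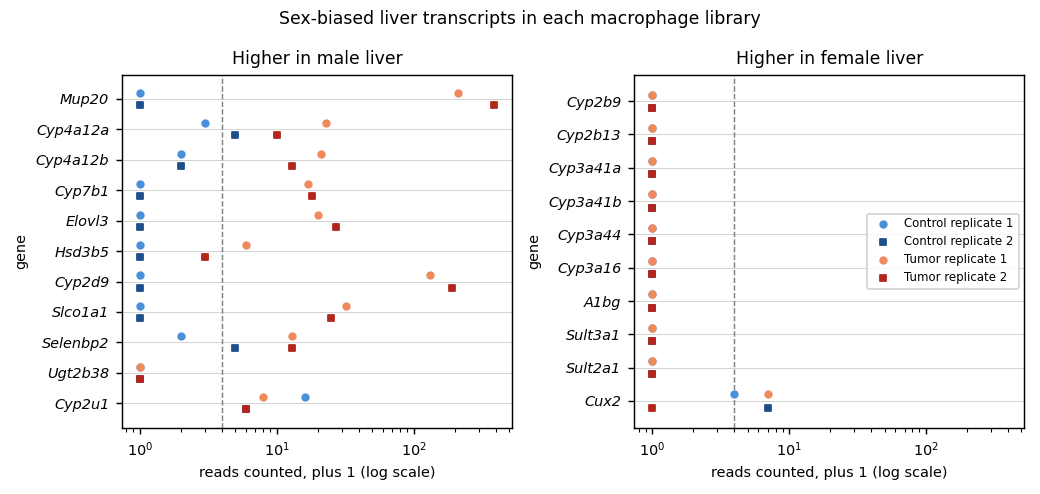
Reads counted plus 1 (log scale) in each of the 4 libraries for 11 genes higher in male liver and 10 genes higher in female mouse liver, with the floor of 3 counts as a dashed line. Mup20 reaches 212 and 389 counts in Tumor, while no plotted gene of the female list lies above the floor in both Tumor libraries.

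Non-hepatocyte cells of the liver were followed by lists of markers. As background, 29.0% of all genes tested were higher and 24.8% lower. Of all 54532 genes in the table, 1292 were at the floor in both Control and above it in both Tumor libraries. Of 6 Kupffer cell genes, 3 were tested and 2 were lower, and Clec4f, their defining lectin, had 0 counts in Control and 3 and 10 in Tumor. Of 9 genes of liver sinusoidal endothelium, 7 were tested, with 1 higher and 3 lower, the higher one being Oit3 with 0 and 2 counts in Control and 71 and 66 in Tumor. Of 9 hepatic stellate cell genes 4 were tested and 2 were higher, or 4 with scaling on the AM identity genes, and of 8 cholangiocyte genes 3 were tested and all 3 were lower. These lists had counts in Control as well. Summed CPM in Control replicates 1 and 2 was 8.70 and 7.54 for Kupffer cells and 23.1 and 23.4 for endothelium. It was 38.5 and 35.5 for stellate cells and 1715 and 1751 for cholangiocytes. Lower calls in these lists therefore do not measure liver cells alone. In the endothelial, stellate and cholangiocyte lists 1 gene each was at the floor in both Control and above it in both Tumor libraries, and higher calls in these lists carry the limit of the filter given above. Genes of other organs that secrete or reabsorb plasma proteins were near 0. Of 8 kidney tubule genes, Miox alone was above the floor in both Tumor libraries, with 0 counts in Control and 18 in each Tumor library. Of 8 intestinal genes 2 were at the floor in both Control and above it in both Tumor libraries, namely Fabp2 with 11 and 8 counts and Cdh17 with 6 and 7 in Tumor, against 0 in Control. Of the intestinal list and 8 exocrine pancreas genes none was tested, and summed CPM was at most 1.67 for the intestinal and 0.444 for the pancreas list in any library.

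**Figure D5:**
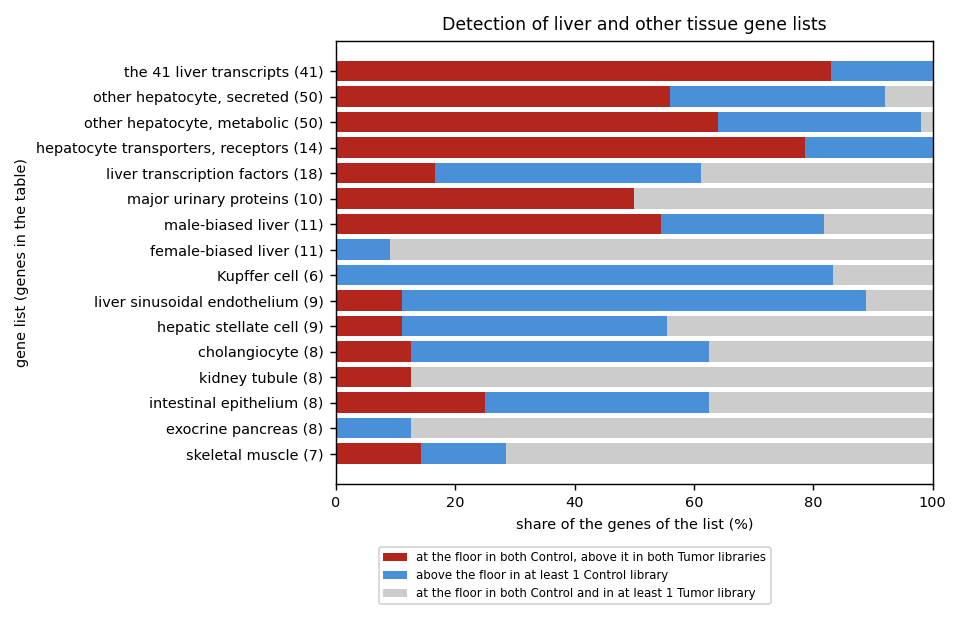
Share of the genes of each list (%, number of genes in brackets) that were at the floor in both Control and above it in both Tumor libraries (red), above the floor in a Control library (blue), or at the floor in both Control and in at least 1 Tumor library (grey). The red share is 34 of 41 for the liver genes, 11 of 14 for hepatocyte transporters and receptors, and 0 of 11 for genes higher in female liver.

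Markers of blood cells also differed between the groups, as did those of lung epithelium. Of 5 eosinophil genes 4 were at the floor in both Control and above it in both Tumor libraries, with a summed CPM of the list of 0.373 and 0.507 in Control against 2715 and 2671 in Tumor. Of 12 neutrophil genes 5 were so, and the summed level was 50.4 and 50.3 CPM in Control against 4075 and 4037 in Tumor. Both lists thus exceeded the summed liver level in Tumor. Of 6 haemoglobin and erythroid genes 2 were so, with 0.694 and 1.46 CPM against 14.4 and 15.1. Of 7 lung epithelial genes tested, 4 were lower and 3 not called, which became 2 lower and 3 higher with scaling on the AM identity genes, and the summed level was 91.9 and 91.4 CPM in Control against 35.7 and 43.2 in Tumor. The 5 genes with the highest Tumor CPM among the other genes at the floor in both Control libraries were Prg2, Ngp, Ear6, Epx and Saa3. With the liver group included in this ranking, 23 of the first 100 genes were its members. The part of these cells in the liver counts was not tested.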

How the data were processed

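AM libraries were made from TRIzol RNA with a NEBNext Ultra kit, and the authors aligned paired reads with HISAT2 2.0.5. The deposited table holds the raw counts that featureCounts gave for each gene. Build, annotation, strand setting and treatment of multi-mapping reads are not given in the sources used here, so reads of paralogs and overlapping genes may be split or shared. Identifiers were matched to the GENCODE M21 annotation of GRCm38 (54495 of 54532, 98.3% with identical coordinates, and 39 of the 41 members).

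Groups were taken from the titles. In R 4.3.3, edgeR 4.0.16 (filterByExpr with a minimum count of 10, TMM, quasi-likelihood F test with group as the single term, 2 residual degrees of freedom, Benjamini-Hochberg adjustment over 14256 genes, threshold 0.05) was run after a test on simulated data. SE is the log2 fold change over the square root of F. CPM use library totals of 16167147 to 19205737 counts multiplied by TMM factors of 0.977 to 1.02, and 3 counts are the floor. Intervals cover counting error only, and bounds are taken from the observed Tumor counts without any allowance for counting error. Fitted fold changes of members at the floor in both Control libraries are not given.

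Members, lists and tests were chosen with earlier results of these data known. Full values are given for members above the floor in a Control library and for the 3 highest per kilobase in each role, for up to 4 genes of highest mean CPM per list, and for the 5 highest other genes at the Control floor. Some genes of the lists are not reported here by name. Shared sequence was counted as 50-base windows of GENCODE transcripts. Alternatives were DESeq2 1.42.0, limma-voom (limma 3.58.1), other scalings and filters, a replicate block and leaving out each library.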

Additional observations from a re-analysis of the deposited data

How the results depend on the processing

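The 39 members called higher stayed so under every scaling tried, which for members at the Control floor follows from the filter. The count of all genes called moved by more than 1.5 times only with a log2 fold change of at least 1, to 2268. With at least 10 counts in every library, 2 members and 24 other hepatocyte genes were left to test, and 1 and 15 of them were called higher. Among members above the floor in a Control library, an alternative added after the data were seen, 6 of 7 were called higher, but 5 of these had under 10 counts in a Control library. The 1 lower call, Trf, became 0 with total counts as library sizes, with scaling on AM identity genes and with a log2 fold change of at least 1, and ran from 0 to 1 when a library was left out. The log2 fold change of Trf was 0.23 with scaling on AM identity genes. Of 83 alternative values for single members with a fitted change, 80 kept direction and call, 2 lost the call and 1 changed direction, all 3 of them for Trf, and most of the 80 belong to members with under 10 counts in a Control library, whose calls the filter favours. Summed member CPM in Control was 141.9 with total counts, 127.2 with AM identity scaling and 2.69 without Trf, the last added after the data were seen. In Tumor it was 1275, 1426 and 1119 under these settings, and 777.2 without Alb. On the gene strand alone the HNF1 share was 10.5% and the HNF4 share 2.63%. Libraries of the same number did not deviate together (correlation -0.00278 across genes, which are not replicates), and with the replicate number as a block 39 members were called higher and 1 lower, of 7446 genes called in either direction. With 2 libraries per group, low counts limit the values of Agt, F2, Itih4, Serpinc1, Fetub and Ugt1a1.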

Other observations

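Genes of the acute phase response, which hepatocytes and inflamed tissues both express, were also measured. Of 18 such genes 17 were tested, with 15 higher and 2 lower in Tumor, a count that includes genes which passed the filter only through Tumor, since 10 were at the floor in both Control and above it in both Tumor libraries. Hp, the haptoglobin gene, had 78 and 73 counts in Control and 2999 and 3270 in Tumor, and Saa3 had 2 and 1 against 2927 and 3347. Cd14 and Il1rn, which macrophages express strongly, were the 2 lower genes, but Cd14 was called higher, at a log2 fold change of 0.09, with scaling on the AM identity genes. Il1rn kept its direction, with 11986 and 10060 counts in Control against 3820 and 4067 in Tumor.

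Genes of both ends of the liver lobule were present in the Tumor libraries. Of 13 pericentral genes outside the 41 members, 6 were at the floor in both Control and above it in both Tumor libraries, and the glutamine synthetase gene Glul was abundant in all libraries with 10171 to 13738 counts. Of 13 periportal genes 5 were at the floor in both Control and above it in both Tumor libraries. Among genes of fetal liver and yolk sac, Gpc3 had 0 counts in Control and 48 and 53 in Tumor, and Afp had 166 and 125 counts in Control against 113 and 124 in Tumor.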
